A study of Mus musculus with 18 samples.

Results

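The carnitine shuttle was followed through 8 genes chosen by name, Cpt1a, Cpt1b, Cpt1c, Cpt2, Slc25a20, Slc22a5, Crat and Crot, among the 35551 mouse gene IDs of each deposited table. All 8 had a row in the 3 tables, and all 8 passed the minimum level used for testing, a mean of 10 normalized counts over the libraries of a fit. The cells were AML12, a non-transformed mouse hepatocyte line established from a mouse carrying a human TGFα transgene, and every group shared this line. Their circadian rhythm had been synchronized before exposure to pemafibrate (Pema), which selectively modulates the nuclear receptor PPARα, or to DMSO, its solvent. Each treatment was given over T0 to T24, an exposure of 24 h, over T14 to T20, an exposure of 6 h that stood for the day, and over T24 to T30, an exposure of 6 h that stood for the night. The 6 groups were therefore Pema and DMSO in each of the 3 windows, with 3 libraries per group and 18 libraries in all. The labels name no further genetic change and give no pemafibrate concentration, and a single cell line limits what the groups can stand for.

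Long-chain fatty acids reach the mitochondrial matrix only as carnitine esters. The transporter encoded by Slc22a5 brings carnitine into the cell, carnitine palmitoyltransferase 1 on the outer mitochondrial membrane moves the acyl group onto carnitine, the carrier encoded by Slc25a20 exchanges the ester across the inner membrane, and Cpt2 returns the acyl group to coenzyme A. Cpt1 is the regulated step, inhibited by malonyl-CoA, and Cpt1a is its liver form. Peroxisomes have carnitine transferases of their own: Crot acts on the medium-chain products of peroxisomal oxidation, and Crat acts on acetyl and short-chain groups in both peroxisomes and mitochondria. In mouse liver, PPARα is known to regulate several genes of this route.

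Normalized totals lay between 31461977 and 33884634 per library, and the depth before normalization is unknown. Of 8 hepatocyte markers 6 had a median of at least 10, including Hnf4a, at 5476 to 9662 normalized counts, and Alb, at 3124 to 7190, whereas the defining markers Apoa1, at most 15.8, and Cps1, at most 3.03, were nearly absent. Of 5 biliary or progenitor markers 4 had a median of at least 10, and Krt19 lay between 5793 and 12788, while Epcam did not exceed 7.25. The hepatocyte markers summed to 76938 to 96243 in Pema libraries and 74842 to 92039 in DMSO libraries, and the biliary markers to 49624 to 73825 in Pema libraries and 50225 to 76849 in DMSO libraries. The fibroblast, endothelial and macrophage lists had 3 of 5, 1 of 3 and 2 of 3 genes at a median of at least 10. They summed to at most 174.6, 26.6 and 104 in Pema libraries and at most 201, 32.4 and 112 in DMSO libraries, and Adgre1 was listed at 0 throughout. Each Pema library was compared with the DMSO library of the same replicate number and window, giving 9 pairs, and libraries resembled each other by number. Ppara, which encodes the receptor, lay between 100.1 and 293 in Pema libraries and between 90.03 and 230.1 in DMSO libraries. It did not pass the test over the 9 pairs (log2 fold change 0.11 ± 0.18, SE, limma with the pairs as blocks, adjusted p = 0.953). Its windows differed in sign, with log2 fold changes of −0.50 ± 0.22, 0.50 ± 0.20 and 0.33 ± 0.16 in order, none past the threshold (limma, adjusted p = 0.9457, 0.5748 and 0.6859). T0 to T24 minus T14 to T20 was −1.004 for Ppara (95% interval −1.75 to −0.26, limma, unadjusted p = 0.01307, adjusted p = 0.9852).

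Pemafibrate raised 3 of the 8 genes when 1 effect was fitted across the 3 windows: Cpt1a, Slc25a20 and Crot, by 1.24-, 1.15- and 1.17-fold. These are the mitochondrial entry enzyme, the inner membrane carrier and the peroxisomal octanoyltransferase. The log2 fold changes were 0.31 ± 0.02 for Cpt1a, 0.20 ± 0.03 for Slc25a20 and 0.22 ± 0.03 for Crot (SE, limma with the 9 pairs as blocks, adjusted p = 3.474e-06, 0.00543 and 0.001349 over 13258 genes). Pairs that share a replicate number across windows were counted as independent in this fit, which can make its p-values too small. With the windows averaged within each replicate number, Cpt1a kept its call. Crot and Slc25a20 did not (limma, adjusted p = 0.05944 and 0.1775). Over all genes tested in the fit with the 9 pairs, 0.181% rose. The other 5 members did not pass and none fell, a call that 0.00754% of genes received. At an unadjusted p under 0.05 there were 4 members, beside 6.45% of genes. Fold changes were positive for 7 of 8 members and for 47.6% of genes, and the median log2 fold change of the 8 was 0.12, against −0.0025 over all genes. The 8 genes, and the lists named below, were chosen with earlier results of these data known. Values of all genes set beside them are therefore a description and no independent test. Each of the 3 called genes was higher with Pema in 9 of 9 pairs, as were 0.483% of all genes tested. The calls came from these same pairs, so this agreement follows largely from them. Two-sided tests were used throughout, and fold changes refer to log2(normalized count + 1). These are RNA levels of whole cultures, in which fewer cells of a type and less RNA per cell cannot be told apart.

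**Figure D1:**
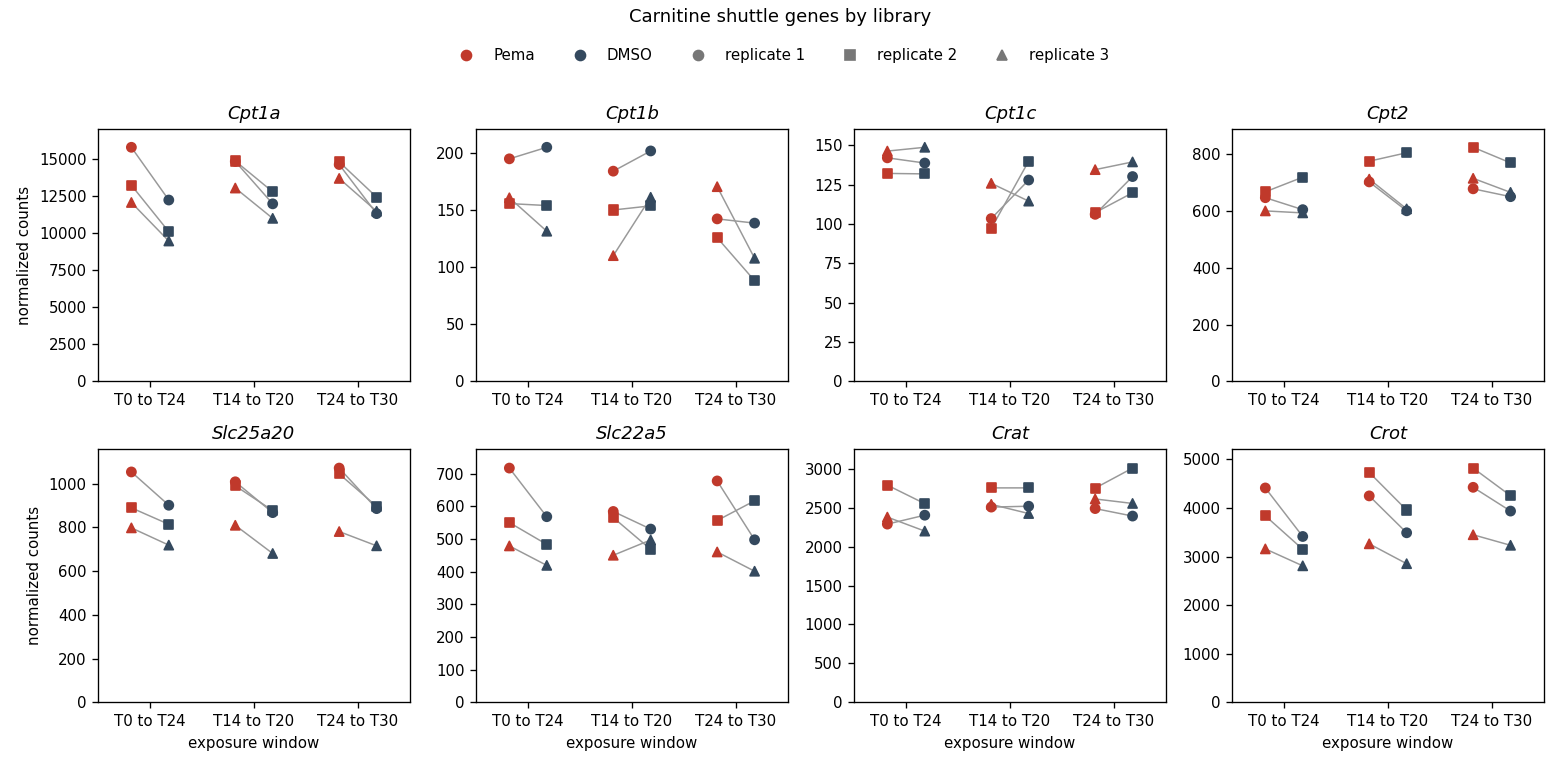
Normalized counts (vertical axes, starting at 0) of the 8 genes in every library, by exposure window, with Pema left of DMSO. Symbols mark the replicate number and lines join the libraries of a pair. For Cpt1a, Slc25a20 and Crot all 9 lines fall towards DMSO, and for Slc25a20 and Crot the libraries of replicate 3 are the lowest of every group.

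Cpt1a (ENSMUSG00000024900, GRCm38 chromosome 19, 3322334 to 3385733, plus strand) had 15809.5, 13249 and 12083 normalized counts in the Pema libraries of replicates 1, 2 and 3 over T0 to T24, against 12249, 10112 and 9483 in the DMSO libraries. Replicate 1 was high and replicate 3 low in both groups, and the highest DMSO library exceeded the lowest Pema library, although every pair differed by 27.4% to 31.0%. From T14 to T20 it had 14854, 14883 and 13058 in Pema libraries, against 11992, 12805 and 11012 in DMSO libraries, and over T24 to T30 it had 14647, 14823 and 13708 in Pema libraries, against 11331, 12446 and 11492 in DMSO libraries. In both 6 h windows every Pema library lay above every DMSO library. Cpt1a was the 1 member with such a separation, which 1.82% of genes showed over T14 to T20 and 2.08% over T24 to T30.

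Cpt1a rose by 0.37 ± 0.03 on the log2 scale over T0 to T24 (SE, limma with the replicate number as a block, adjusted p = 0.01268) and was the 1 of 8 members called in that window, where 0.0525% of genes rose. The call was lost when any 1 replicate number was left out, with values of 0.36 to 0.38 and adjusted p = 0.05364 to 0.06692, and also without the block (adjusted p = 0.9999), with no low-value filter (0.2425) and with no variance trend (0.5023). Its log2 fold change over T14 to T20 was 0.26 ± 0.03 (limma, adjusted p = 0.06474) and over T24 to T30 0.29 ± 0.04 (limma, adjusted p = 0.1606). None of the 8 members was called in these windows by limma, where 0.0303% and 0.0378% of genes rose, and 0.00757% fell over T14 to T20. At an unadjusted p under 0.05 the members numbered 4, 3 and 4 in the 3 windows in order, and the shares over all genes were 5.17%, 8.14% and 7.51% in either direction. In the fit across windows Cpt1a kept its call whichever replicate number was left out, and it lost the call without the block (adjusted p = 0.1346).

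Cpt1b, the muscle form of the same enzyme (ENSMUSG00000078937, chromosome 15, 89416405 to 89425863, minus strand), was far lower. Over T0 to T24 it had 195, 156 and 161 normalized counts in Pema libraries, against 205, 154 and 132 in DMSO libraries. The values were 184, 150.2 and 110.2 with Pema and 202, 154 and 161 with DMSO over T14 to T20, and 142, 126 and 171 with Pema and 139, 88.3 and 108 with DMSO over T24 to T30. The groups overlapped in every window, but all 3 pairs were lower with Pema over T14 to T20 and all 3 were higher over T24 to T30. The share of all genes with such opposite windows was not counted. The log2 fold changes of Cpt1b were 0.08 ± 0.12, −0.24 ± 0.13 and 0.40 ± 0.15 in the 3 windows in order, and none passed (limma, adjusted p = 0.9859, 0.6916 and 0.6567). Cpt1b overlaps Gm44502, a predicted protein-coding gene on the same strand that had 34.0 to 214 normalized counts, so the division of reads between them is uncertain. Its neighbour Chkb, a choline kinase, had 1203 to 1655 in Pema libraries and 1124 to 1916 in DMSO libraries, with a log2 fold change across windows of −0.04 ± 0.04.

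Cpt1c, a form found in the endoplasmic reticulum of neurons (chromosome 7, 44959372 to 44974851, minus strand), ranged over 97.2 to 146 normalized counts in Pema libraries and 115 to 149 in DMSO libraries. It was the 1 member with a negative value across windows, −0.13 ± 0.07 (SE, limma, adjusted p = 0.8342), and was higher with Pema in 3 of 9 pairs. An antisense gene overlaps Cpt1c on the opposite strand and was not analysed here.

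Cpt2, the matrix enzyme (ENSMUSG00000028607, chromosome 4, 107903981 to 107923610, minus strand), had 645, 666 and 599 normalized counts with Pema over T0 to T24, against 603, 717 and 592 with DMSO. In the T14 to T20 window it had 701, 774 and 711 with Pema, against 599, 803 and 606 with DMSO, and over T24 to T30 677, 822 and 713 with Pema, against 649, 768 and 664 with DMSO. The groups overlapped in each window, and the pair of replicate 2 was lower with Pema in the first 2 of them. Its log2 fold change across windows was 0.07 ± 0.04 (SE, limma, adjusted p = 0.8253), higher in 7 of 9 pairs. The 95% interval of −0.01 to 0.16 did not reach that of Cpt1a, 0.26 to 0.35, but the difference between Cpt2 and Cpt1a within pairs was not tested.

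Slc25a20, the carrier of the inner mitochondrial membrane (ENSMUSG00000032602, chromosome 9, 108662088 to 108684641, plus strand), had 1054, 889.6 and 798 normalized counts with Pema over T0 to T24, against 902, 814 and 719 with DMSO. In the day window it had 1009, 990.5 and 809.7 with Pema, against 868, 877 and 681 with DMSO, and in the night window 1072, 1045 and 781 with Pema, against 886, 896 and 716 with DMSO. Replicate 3 was low in every group, so the groups overlapped in all windows although each of the 9 pairs was higher with Pema, by 9.13% to 20.9%. The log2 fold changes of 0.17 ± 0.06, 0.21 ± 0.05 and 0.21 ± 0.06 did not pass within the windows (limma, adjusted p = 0.9098, 0.5084 and 0.6107). The call across windows was lost without replicate 1, 2 or 3, with values of 0.18, 0.21 and 0.21 and adjusted p = 0.2646, 0.1515 and 0.09439. It was also lost without the block (adjusted p = 1.0) and when the windows were averaged within each replicate number (adjusted p = 0.1775).

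Slc22a5, the plasma membrane carnitine transporter (ENSMUSG00000018900, chromosome 11, 53864542 to 53891660, minus strand), had 717, 550.3 and 479 normalized counts with Pema over T0 to T24, against 568, 483 and 419 with DMSO. In the day window it had 584, 566 and 450.2 with Pema and 530.4, 468 and 497 with DMSO, and in the night window 678, 557 and 460.3 with Pema and 498, 617 and 401 with DMSO. All 3 pairs were higher over T0 to T24, and 2 of 3 in each of the other windows. Across windows its log2 fold change was 0.16 ± 0.06 and it did not pass (SE, limma, adjusted p = 0.6293). Without replicate 1 this value was 0.09, and that over T24 to T30 was 0.02, against 0.165 with all 3 replicates.

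Crot, the peroxisomal octanoyltransferase (ENSMUSG00000003623, chromosome 5, 8966033 to 8997324, minus strand), had 4411, 3837 and 3156 normalized counts with Pema over T0 to T24, against 3412, 3149 and 2808 with DMSO. Over T14 to T20 it had 4247, 4730.0 and 3261 with Pema, against 3488, 3956 and 2852 with DMSO, and over T24 to T30 4424, 4819.8 and 3447 with Pema, against 3935, 4251 and 3230.5 with DMSO. Replicate 3 was again the lowest in each group and the groups overlapped, with every pair higher by 6.71% to 29.3%. Its log2 fold change was 0.28 ± 0.05 in the 24 h window, 0.25 ± 0.04 in the day window and 0.15 ± 0.04 in the night window, none past the threshold within its window (limma, adjusted p = 0.4001, 0.1644 and 0.6006). Across windows the call was lost without replicate 2 (0.21, adjusted p = 0.09945), without the block (adjusted p = 1.0) and with the windows averaged within each replicate number (adjusted p = 0.05944). A pseudogene on the opposite strand of Crot, Gm15610, had at most 1.01 normalized counts. Other annotated genes overlap Crot on the same and on the opposite strand and were not analysed here.

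Crat, the acetyltransferase (ENSMUSG00000026853, chromosome 2, 30400471 to 30415813, minus strand), had 2290.2, 2791 and 2380.1 normalized counts with Pema over T0 to T24, against 2405, 2553 and 2200.2 with DMSO. Its values were 2509, 2756 and 2544 with Pema and 2520.1, 2756 and 2426 with DMSO over T14 to T20, and 2489.8, 2753 and 2613 with Pema and 2394, 3010.3 and 2556 with DMSO over T24 to T30. No window separated the groups, and 5 of 9 pairs were higher with Pema. The log2 fold change across windows was 0.02 ± 0.03 with a 95% interval of −0.04 to 0.08 (SE, limma, adjusted p = 0.9367). Crat overlaps Dolpp1 on the opposite strand, which had 246 to 438 normalized counts. An antisense gene also overlaps Crat on the opposite strand and was not analysed here. The libraries were made with a kit that marks strand, but whether the authors counted by strand is not given in the sources used here.

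**Figure D2:**
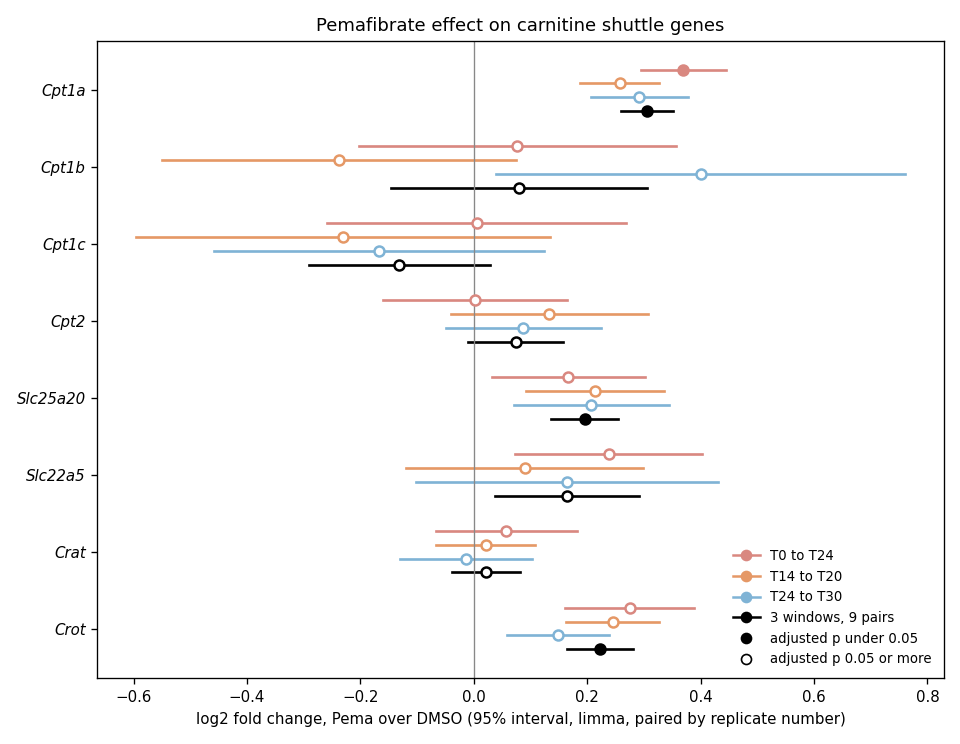
Log2 fold change of Pema over DMSO (horizontal axis) with its 95% interval for each gene, in each window and across the 9 pairs. Filled points passed an adjusted p of 0.05: Cpt1a over T0 to T24, and Cpt1a, Slc25a20 and Crot across the windows.

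The DNA before the starts of the 3 called genes is shown, from RefSeq on GRCm38.p6. It runs from 250 bases before to 30 bases after the annotated start, read along each gene's own strand. A link between these letters and the rise was not tested. PPARα binds with its partner RXR to a direct repeat of AGGTCA separated by a single base, written AGGTCANAGGTCA. Capitals mark an exact half-site AGGTCA on either strand in Cpt1a (its reverse complement TGACCT, beginning 94 bases before the start) and the closest match to the whole repeat in Slc25a20 (beginning at base 7 after the start). Crot, which held no half-site and whose closest match had as many differences as that of Cpt1a, is printed beside them.
Cpt1a, chr19:3323051-3323330, plus strand: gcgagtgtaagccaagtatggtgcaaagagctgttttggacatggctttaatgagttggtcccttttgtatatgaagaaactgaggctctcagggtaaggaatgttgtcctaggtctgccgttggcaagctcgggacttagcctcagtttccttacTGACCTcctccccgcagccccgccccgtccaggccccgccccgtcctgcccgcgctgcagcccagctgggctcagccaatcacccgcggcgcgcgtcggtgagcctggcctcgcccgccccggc
Slc25a20, chr9:108661886-108662165, plus strand: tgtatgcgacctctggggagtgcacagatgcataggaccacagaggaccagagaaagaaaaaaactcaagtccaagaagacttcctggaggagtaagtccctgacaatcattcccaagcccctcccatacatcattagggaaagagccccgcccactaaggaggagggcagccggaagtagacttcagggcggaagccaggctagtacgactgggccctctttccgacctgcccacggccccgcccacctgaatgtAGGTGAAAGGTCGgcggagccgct
Crot, chr5:8997117-8997396, minus strand: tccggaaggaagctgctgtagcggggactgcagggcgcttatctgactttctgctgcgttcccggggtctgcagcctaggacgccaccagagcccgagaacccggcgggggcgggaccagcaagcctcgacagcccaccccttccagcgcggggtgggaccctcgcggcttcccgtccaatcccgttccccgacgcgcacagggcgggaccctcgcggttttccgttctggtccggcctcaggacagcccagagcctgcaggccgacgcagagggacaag
The match in Slc25a20, AGGTGAAAGGTCG, differed from the repeat at 2 of the 12 fixed positions, and 3.86% of 32851 RefSeq promoter windows of 300 bases held a match at least as close. The windows of Cpt1a and Crot had no match closer than 4 differences, a level that 79.8% of windows reached. Among members without a call, Cpt1c and Slc22a5 also had 4 differences and Cpt2 had 5. A half-site stood in the windows of Cpt1a and Cpt1c, 2 of the 6 members with an entry, and in 16.3% of all windows. The whole repeat stood in none of the 6 and in 0.0396% of all windows. Both strands were searched, a half-site can lie within a match to the repeat, and a match is a run of letters, not a measured binding site. RefSeq starts can differ from the GENCODE positions given above, and the window of Cpt1a lies inside its GENCODE gene. For Crot, the end of the window of 300 bases was found in no GENCODE transcript of the gene, so its start is less certain.

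The mitochondrial transferases Cpt1a, Cpt2 and Cpt1b were set against the peroxisomal transferases Crot and Crat within each pair of libraries. Neither compartment moved as 1 group: Cpt1a and Crot were called, 1 on each side, and Cpt2, Cpt1b and Crat were not. The response of Cpt1a exceeded that of Crat by 0.28 ± 0.03 on the log2 scale (SE, n = 9 pairs, exact sign-flip permutation test, adjusted p = 0.02344 over the 6 gene pairs), and it was larger in 9 of 9 pairs, by 0.18 to 0.44. Against Crot, the response of Cpt1a was larger by 0.08 ± 0.03 and in 7 of 9 pairs (exact sign-flip permutation test, adjusted p = 0.04688). Cpt2 responded less than Crot, by −0.15 ± 0.05, and was the larger in 2 of 9 pairs (exact sign-flip permutation test, adjusted p = 0.04688). With 9 pairs the smallest p this test can give is 0.003906 before adjustment, and pairs that share a replicate number across windows were counted as independent.

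Cpt2 and Crat differed by 0.05 ± 0.05, Cpt1b and Crot by −0.14 ± 0.14, and Cpt1b and Crat by 0.06 ± 0.13, and none of these passed (exact sign-flip permutation test, adjusted p = 0.3984, 0.3984 and 0.7031). Leaving out any 1 replicate number leaves 6 pairs, where the smallest p before adjustment is 0.03125 and no difference passed after it. Cpt1a minus Crat was at that smallest p each time, with values of 0.25 to 0.32. Without pairing, the difference of Cpt1a and Crat passed (permutation test, adjusted p = 0.0045), and those of Cpt1a and Crot and of Cpt2 and Crot did not (permutation test, adjusted p = 0.3686 and 0.3473). Crat has forms in both compartments and the gene value does not separate them, so its place on the peroxisomal side is a convention.

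**Figure D3:**
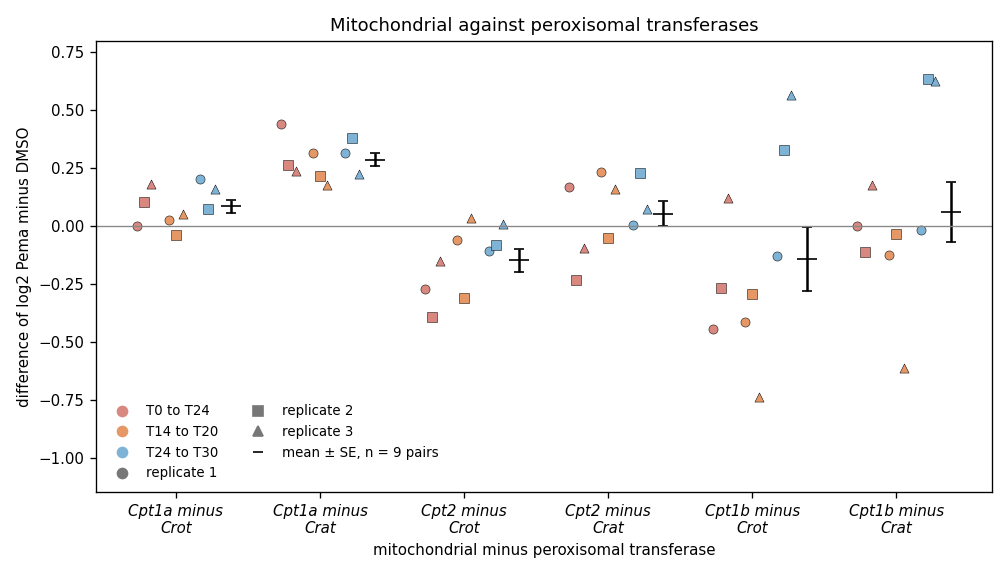
Difference of the log2 Pema minus DMSO values of a mitochondrial and a peroxisomal transferase (vertical axis) in each of the 9 pairs, for the 6 gene pairs, with the mean and SE beside the points. All 9 points of Cpt1a minus Crat lie above 0, between 0.18 and 0.44, and 7 of 9 points of Cpt2 minus Crot lie below it.

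The 3 windows ask whether the length and the circadian time of exposure matter. Cpt1a had its highest fold change over T0 to T24, by 0.11 more than over T14 to T20 (95% interval 0.02 to 0.21, limma, adjusted p = 0.9852) and by 0.08 more than over T24 to T30 (−0.02 to 0.17, adjusted p = 0.6921). Crot differed by 0.13 between T0 to T24 and T24 to T30 (0.00 to 0.25, limma, adjusted p = 0.6183) and by 0.10 between T14 to T20 and T24 to T30 (−0.03 to 0.22, adjusted p = 0.6209). For Slc25a20 the day window minus the night window was 0.01 (−0.15 to 0.16, limma, adjusted p = 0.9829). Cpt1b was lower by 0.64 in the day window than in the night window (difference −0.64, 95% interval −1.08 to −0.20), short of the threshold (limma, adjusted p = 0.4184). No member and no other gene passed in any of the 3 differences by limma, and at an unadjusted p under 0.05 there was 1 member in each, beside 9.24% of genes for T14 to T20 minus T24 to T30, 4.93% for T0 to T24 minus T14 to T20 and 7.97% for T0 to T24 minus T24 to T30. Start, length and harvest all differ between the 24 h window and the others, so the length of exposure cannot be told apart from its circadian time.

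Per kilobase of the longest coding transcript in GENCODE, the DMSO level of Cpt1a stood first of the 8, at window means of 2459 to 2765 normalized counts per kilobase. Crot followed at 1042 to 1270.2, then Crat at 565 to 628, Slc25a20 at 453 to 467, Cpt2 at 269 to 292 and Slc22a5 at 160.1 to 165. The window means of Cpt1b, 38.6 to 59.5, and Cpt1c, 45.7 to 50.1, overlapped, so that their order cannot be given. The tables were normalized separately and the transcripts in use are not known, so these levels give an order within a table and no test was made between windows.

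Among genes around the shuttle, 1 of 15 tested rose across the windows and none fell. Acadvl, the very long-chain acyl-CoA dehydrogenase that starts matrix oxidation, averaged 3187 ± 299, 3272 ± 272 and 3268 ± 329 normalized counts with Pema in the 3 windows in order, and 2819 ± 410.0, 2957 ± 238 and 2949.9 ± 258 with DMSO (SD, n = 3 each). Its log2 fold change was 0.16 ± 0.02, higher in 9 of 9 pairs (SE, limma, adjusted p = 0.01102). The call was lost without replicate 1, 2 or 3 (0.14, 0.19 and 0.14, limma, adjusted p = 0.3336, 0.08818 and 0.1884), without the block (adjusted p = 1.0), without the variance trend (0.05904) and with averaged windows (0.1474). Hadha, the alpha subunit of the trifunctional protein that acts next, was 0.11 ± 0.02 and also higher in 9 of 9 pairs, without passing (limma, adjusted p = 0.09241). Acadvl and Hadha belong to a list of 3 genes of long-chain oxidation whose median was 0.11, against −0.0025 over all genes.

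No gene of the other lists passed, and 0.181% of all genes rose in the same fit. In carnitine synthesis, Aldh9a1, an aldehyde dehydrogenase, was 0.08 ± 0.02 (limma, adjusted p = 0.3478), Bbox1, which makes the last step to carnitine, was below the minimum with at most 3.97 normalized counts, and Tmlhe was not analysed here. Of 5 other carnitine transporters only Slc22a4 reached the minimum, at 0.05 ± 0.11, and Slc22a21, a close relative of Slc22a5, had at most 15.9. In the control of Cpt1 by malonyl-CoA, Mlycd, which degrades malonyl-CoA, was 0.03 ± 0.04, and Acaca, a carboxylase that makes it, was 0.01 ± 0.04. Among acyl-CoA synthetases, which activate fatty acids before the shuttle, Acsl1 was 0.10 ± 0.04 and Acsl4 0.04 ± 0.03 (limma, adjusted p = 0.7681 and 0.8402). At the peroxisome, the acyl-CoA importers Abcd3 and Abcd2 were 0.06 ± 0.02 and −0.22 ± 0.22 (limma, adjusted p = 0.6293 and 0.9152). Abcd2, at 6.06 to 41.3 normalized counts, was lower with Pema in all 3 pairs over T0 to T24, with log2 differences of −0.89 to −0.79 (limma, −0.83 ± 0.24, adjusted p = 0.832), and was 0.01 ± 0.36 and 0.16 ± 0.41 in the 6 h windows. Its value across windows was −0.07 without replicate 2.

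**Figure D4:**
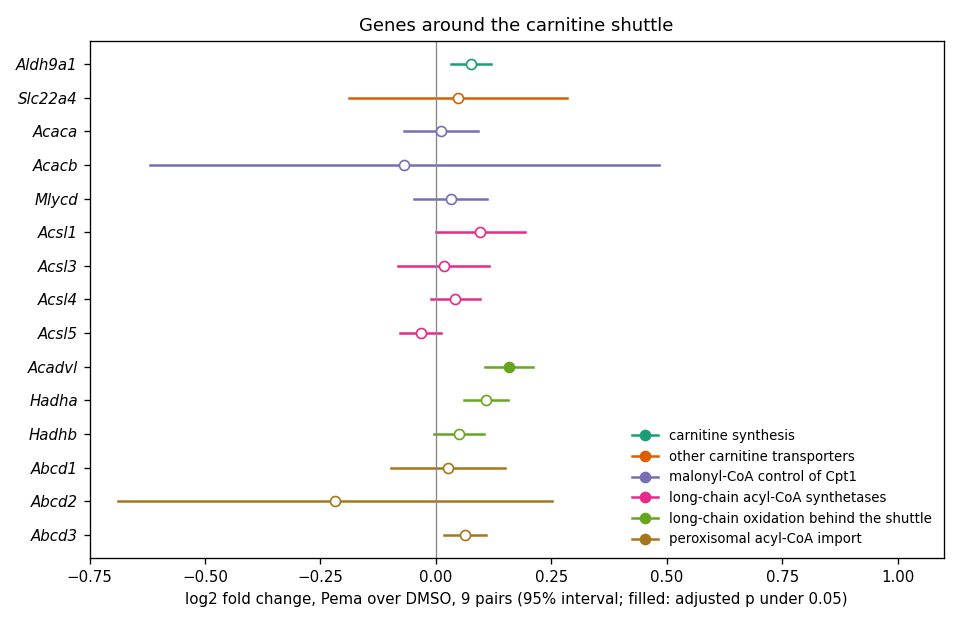
Log2 fold change of Pema over DMSO across the 9 pairs (horizontal axis) with its 95% interval for the 15 tested genes around the shuttle, coloured by list. Acadvl, the filled point, is the gene that passed, at 0.16, and the intervals of Acacb and Abcd2, both low in these cells, are the widest.

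The genes whose responses lay closest to those of the called members were found by the root mean square difference of the log2 Pema minus DMSO values over the 9 pairs. Plin2, which coats lipid droplets, was nearest to Cpt1a at 0.08, with a fold change of 0.37 ± 0.02 on the log2 scale. Klf11, a transcription factor, Col12a1, a collagen, Acaa2, a mitochondrial thiolase, and Nrip1, a corepressor of nuclear receptors, followed at 0.12 to 0.13. For Slc25a20 the nearest were Col12a1 at 0.05, Acaa2 at 0.07 and Eipr1, of vesicle traffic, at 0.08. For Crot they were Nrip1 at 0.08, Nrep at 0.08 and Eci2, an enoyl-CoA isomerase, at 0.09. All of these genes passed the test across windows, and each was higher with Pema in 9 of 9 pairs except Eci2, in 8 of 9. They were chosen for closeness to called members in these same pairs, so both traits follow largely from the choice. The measure was searched among genes tested in the same fit, so it describes these libraries and has no test.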

How the data were processed

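Poly(A) RNA of 18 AML12 libraries was sequenced after dUTP strand marking, per the labels' protocols. The authors deposited 1 table of normalized signal (counts per gene, normalized within each window) for 6 libraries each, and per the file headers the column names end as salmon output does. The genome build, annotation, tool versions and read depth behind them were not given in the sources used here. Groups and replicate numbers came from the sample titles, and no label says whether the replicates were grown apart. The p-values therefore reflect how far these libraries scatter, and that scatter may be technical.

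Symbols matched 35181 of 35551 IDs. Positions and transcript lengths come from the GENCODE annotation of GRCm38, matched by gene ID. The log2(value + 1) of genes with a mean of at least 10 was fitted with limma 3.58.1 in R 4.3.3 (eBayes with a variance trend) with the replicate number as a block, on the 6 libraries of a window or, with 9 pairs as blocks, on all 18. Benjamini-Hochberg adjustment ran over all genes tested, with a threshold of 0.05. As a check of the pairing, how far libraries deviated from their group mean was correlated between Pema and DMSO libraries. The correlations were 0.31 to 0.62 for the same number and −0.42 to −0.11 for different numbers. Deviations from a group mean cancel out within the group, so positive values for the same number bring negative ones for different numbers. Pairing by replicate number was planned, and the numbers come from the titles. Transferases were compared by an exact sign-flip test over 9 pairs. The fits were also run on simulated data with known effects, and the outcome is not reported here.

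Named genes were the 8 members, Ppara, Chkb and, from each of 6 lists of the same route, the called genes or otherwise the 2 of smallest p, plus the 5, 3 and 3 genes of most similar response. Hadha, Bbox1, Slc22a21, Gm44502, Dolpp1, Gm15610 and the markers were named beside this rule. A gene of the peroxisomal list is not reported here. The members and lists were chosen with earlier results of these data known. Other settings tried were other pseudocounts, filters, scalings and variance models, no block, a shared fit of all libraries, averaged windows and each replicate number left out.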

Additional observations from a re-analysis of the deposited data

Results flagged for a closer look

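Cpt1b moved in opposite directions in the 2 windows of 6 h. Over T14 to T20 the log2 Pema minus DMSO differences were −0.131, −0.034 and −0.546 in replicates 1, 2 and 3, and over T24 to T30 they were 0.039, 0.507 and 0.657. Every pair of one window was lower with Pema and every pair of the other was higher, though the differences of −0.034 and 0.039 were small. Cpt1b was flagged for this pattern, and the share of all genes showing it was not counted. The difference between the windows, −0.64 ± 0.20 (SE, limma), did not pass over 13258 genes (adjusted p = 0.4184, and 0.3899 to 0.9999 in the other settings). It was −0.872 without replicate 1 and −0.356 without replicate 3. Cpt1b is among the lowest members, and the share of its reads that belongs to the overlapping Gm44502 was not tested.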

How the results depend on the processing

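Removing the replicate block ended calls. Fold changes cannot move with it, since each block holds 1 Pema and 1 DMSO library. Without the block the count of members called over T0 to T24 fell to 0, against 1 with the block, and across the windows to 0, against 3. The T0 to T24 count was also 0 without the filter on low values, without the variance trend, and in every fit that left out a replicate number (0 to 0), and it was 2 (Cpt1a and Crot) in a shared fit of all libraries. Over T14 to T20 the count was 1 (Cpt1a) with robust settings and in the shared fit, and over T24 to T30 1 (Cpt1a) in the shared fit, against 0 as reported. Across the windows it was 1 (Cpt1a) without replicate 2 and with averaged windows, so that leaving out a number gave 1 to 2. No member was called in the differences between windows under any setting. The other pseudocounts and both rescalings changed no count of members, and the median log2 fold change of all genes lay between −0.0052 and 0.0050 in every setting.

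Dropping the block or averaging the windows cannot move the mean difference of a gene pair. Cpt1a minus Crot was 0.084 in both and 0.060 to 0.103 with a replicate number left out. It was 0.094, 0.012 and 0.144 in the single windows in order. Cpt1a minus Crat was 0.285 with averaged windows, 0.249 to 0.321 with a number left out, and 0.312, 0.237 and 0.306 in single windows. Cpt2 minus Crot was −0.148 without the block and with averaged windows, −0.205 to −0.091 with a number left out, and −0.272, −0.112 and −0.061 in single windows. None of these passed. The smallest exact p is 0.25 with 3 units or pairs and 0.03125 with 6 pairs, before adjustment over the 6 gene pairs. Lost calls with averaged windows, a number left out or a single window therefore say little about stability. The permutation test without the block can go lower, and Cpt1a minus Crat passed it (adjusted p = 0.0045). Cpt1a minus Crot and Cpt2 minus Crot did not pass that permutation test (adjusted p = 0.3686 and 0.3473). Signs turned for Cpt2 minus Crat over T0 to T24 (−0.055), Cpt1b minus Crot over T24 to T30 (0.253) and Cpt1b minus Crat over T14 to T20 (−0.258).

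Leaving out a replicate number also turned the sign of values that had not passed. Within windows Cpt1b ranged over −0.028 to 0.152, Cpt1c over −0.010 to 0.019 and Cpt2 over −0.045 to 0.057 for T0 to T24, Slc22a5 over −0.001 to 0.206 and Crat over −0.003 to 0.034 for T14 to T20, and Crat over −0.048 to 0.045 for T24 to T30. Across windows Crat ranged over −0.003 to 0.036, Slc22a4 over −0.068 to 0.224, Mlycd over −0.010 to 0.061, Acaca over −0.019 to 0.038 and Ppara over −0.065 to 0.268. For T14 to T20 minus T24 to T30 the ranges were −0.187 to 0.087 for Cpt1c, −0.014 to 0.146 for Cpt2, −0.052 to 0.039 for Slc25a20, −0.323 to 0.058 for Slc22a5 and −0.013 to 0.083 for Crat. For T0 to T24 minus T14 to T20 Crat ranged over −0.010 to 0.087, and for T0 to T24 minus T24 to T30 Slc22a5 ranged over −0.058 to 0.164 and Crat over −0.023 to 0.169. The cause was not tested. The unknown depth gives no interval for a single library, and 3 pairs per window limit the precision of each window.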
